A study of Mus musculus with 16 samples.

Results

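Resting quadriceps of VV mice was compared with resting quadriceps of MM (WT) mice, gene by gene. The comparison uses 8 of the 16 mice whose muscle RNA was sequenced, the 4 sedentary VV and the 4 sedentary MM (WT) animals, chosen by the genotype and the treatment in the sample labels. It covers the 10519 genes, of 18873 entries in the table, whose FPKM averaged 1 or more across the 16 animals. FPKM is a fragment count divided by the length of the transcript and by the depth of that mouse's library. VV mice are homozygous for a knock-in of Camk2g that puts valines in place of methionines 281 and 282 of CaMKIIγ, and MM (WT) mice are littermates with the unchanged gene. The allele was made in C57BL/6 embryonic stem cells, the line was backcrossed to C57BL/6 J, and the change is present in every tissue, not in muscle alone. All were males of 13 to 15 weeks. Sedentary and exercised mice of both genotypes had been acclimated to the treadmill and had rested before collection, and the exercised mice ran 350 m and were sampled 3 h later. They enter here as other animals of the same genotypes, in the FPKM filter and in the estimate of the spread of each gene. The whole quadriceps was homogenized, so that the RNA comes from fibres and from every other cell of the muscle, and fewer cells of a type cannot be told apart from less RNA per cell.

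CaMKII is a multimeric kinase that calcium-bound calmodulin switches on. In muscle, calcium released from the sarcoplasmic reticulum at each contraction reaches it through calmodulin. Once open, the kinase can be kept active by autophosphorylation or by oxidation of a methionine pair in its regulatory segment, and methionine sulfoxide reductases reverse that oxidation. Active CaMKII phosphorylates calcium channels and pumps, metabolic enzymes and regulators of transcription such as the class II histone deacetylases that hold back MEF2. Valine cannot be oxidized in this way, so VV muscle keeps the kinase but lacks this switch in the γ isoform.

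The codons that the knock-in replaces are shown because they define the genotype. They lie at chr14:20760454-20760459 of GRCm38 on the minus strand, within exon 11 of the 3 annotated transcripts that number the residues 281 and 282 (GENCODE M21). The reference coding sequence around them, in which capitals mark the codons of both methionines, reads 5′ to 3′ as follows.
Camk2g, MM codons: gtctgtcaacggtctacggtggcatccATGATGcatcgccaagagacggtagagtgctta
The FPKM table does not resolve these codons, and the level of Camk2g is no check of the genotype labels.

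The sedentary libraries were of like size and complexity. FPKM summed to between 482254 and 508841 in the 4 VV mice and between 470634 and 513468 in the 4 MM (WT) mice, 15361 to 15716 and 15395 to 15729 entries were above 0, and the 10 highest genes held 30.4 to 33.1% of the sum in VV and 28.9 to 33.0% in MM. Relative depth, read from the steps between values below 0.5 FPKM and set to 1 in the shallowest of the 16 mice, was 1.05 to 1.19 in VV and 1.08 to 1.23 in MM. Read totals were not used here. Fibre markers defined the tissue in both genotypes: all 12 were tested, with 9 above 0 and a median log2 difference of 0.07, and Acta1, skeletal α-actin, stood at 13049 to 23346 FPKM in VV and 10278 to 19188 FPKM in MM mice.

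The whole profiles did not separate by genotype. On log2(FPKM + 0.1) over all tested genes, the mean Euclidean distance was 42.5 between mice of different genotype and 42.0 between mice of the same genotype, a difference of 0.56 (one-sided exact permutation test over 70 splits of the 8 mice, p = 0.286). The nearest mouse was of the other genotype for 5 of the 8 animals. The closest pair of all, at a distance of 34.3, was VV mouse 2074-2 and MM mouse 2074-1, which share the number before the dash, a number the labels do not explain. On the first principal component, with 30.6% of the variance, VV mouse 2074-2 scored -15.7, against 2.88, 16.6 and 20.8 in the other VV mice and -28.8 to 7.38 in MM mice. In 1700112E06Rik, the gene with the smallest p, mouse 2074-2 had a value inside the range of the other VV mice.

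**Figure D1:**
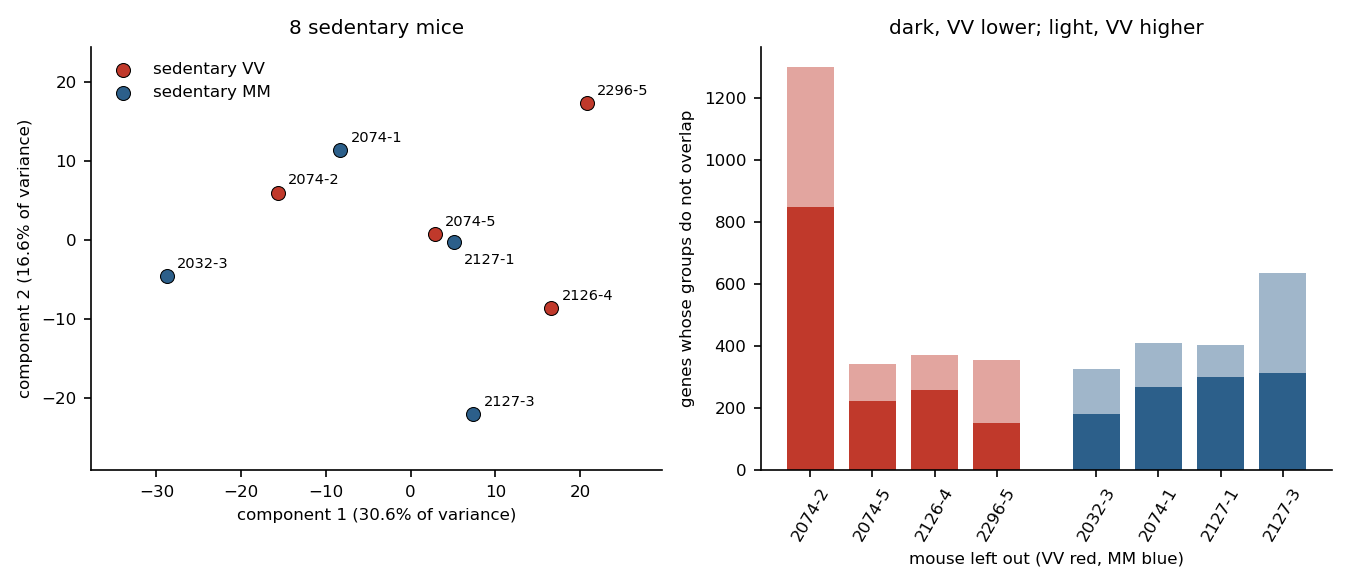
Left, scores of the 8 sedentary mice on the first 2 principal components of log2(FPKM + 0.1), VV in red and MM in blue. Right, the number of genes whose VV and MM values do not overlap when the named mouse is left out (dark, VV lower; light, VV higher). On the left, VV mice 2074-2 and 2074-5 lie inside the MM range on both components. On the right, the number reaches 1299 without 2074-2, against 327 to 636 without any other mouse. All are above the 200 genes of the full comparison, since smaller groups overlap less often.

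A single gene passed the test at rest. By limma on log2(FPKM + 0.1), with the 4 group means of all 16 mice in 1 fit and Benjamini-Hochberg adjustment over the tested genes, 1 of 10519 genes (0.00951%) had an adjusted p under 0.05, and it was lower in VV. At an unadjusted p under 0.05 there were 470 genes (4.47%), 222 higher and 248 lower in VV, and 5 genes were under 0.001. The 4 VV values lay all above the 4 MM values in 69 genes (0.656%) and all below them in 131 genes (1.25%). With median-ratio scaling of the FPKM columns these numbers were 110 and 130, and with quantile scaling 109 and 138. Groups of 4 mice fail to overlap in some genes by chance alone. Absence of overlap is therefore a description, here and for the single genes below, and no evidence of a difference. Without VV mouse 2074-2, 451 genes lay above and 848 below, 1293 genes had an unadjusted p under 0.05, and no gene passed the adjusted threshold. In these same values that mouse lay nearer to MM mice, at a mean distance of 39.3, than to the other VV mice, at 44.0. Leaving it out therefore moves the groups apart, and smaller groups overlap less often. The larger numbers without it are no support for a difference. Apart from 1700112E06Rik and Lphn2, no tested gene had an adjusted p below 0.835. The median log2 difference was -0.03, with 4529 genes above 0 (43.1%) and 5990 below, while under median-ratio scaling it was -0.00 with 49.8% above 0, and the middle 95% of genes lay between -0.35 and 0.38. A difference of more than 2-fold was estimated for 24 genes, of which 3 averaged 20 FPKM or more. The largest estimates belonged mostly to small noncoding RNAs, whose values varied widely within each genotype.

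**Figure D2:**
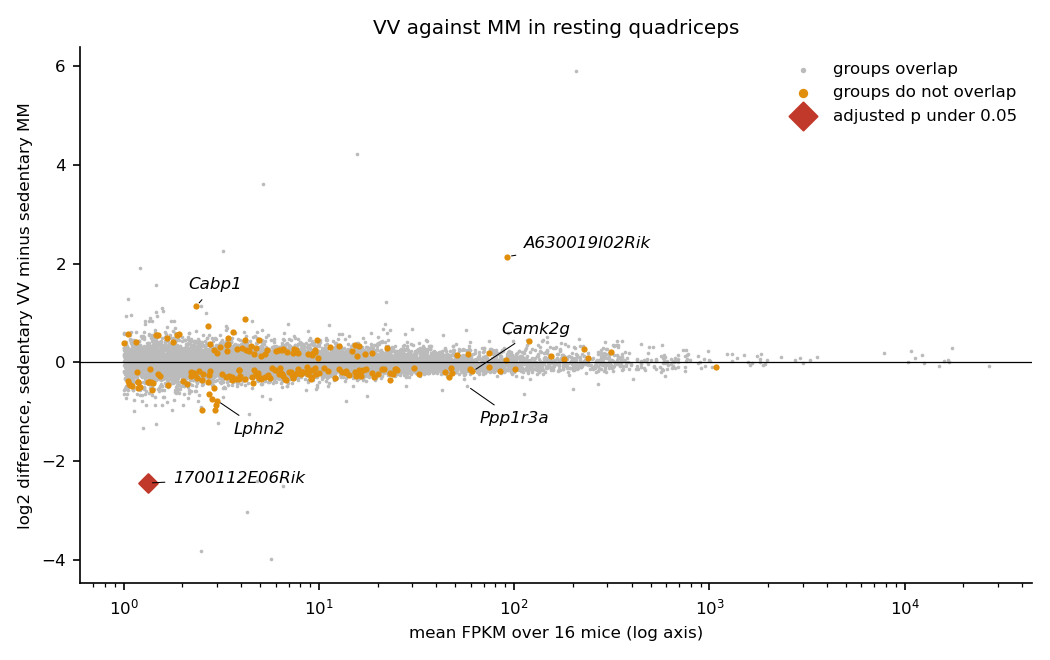
Log2 difference of sedentary VV minus sedentary MM for each tested gene against its mean FPKM over 16 mice (log axis). Grey points are genes whose groups overlap, orange points are the genes whose 4 VV and 4 MM values do not overlap, and the red diamond is 1700112E06Rik at -2.45, the only gene with an adjusted p under 0.05.

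The gene that passed was 1700112E06Rik, named Lrmda in RefSeq, a protein-coding gene with leucine-rich repeats that is known from melanocyte differentiation. It lies on chromosome 14 from 22019504 to 23056093 of GRCm38, 1.23 Mb from Camk2g. Its level was 0.283, 0.255, 0.335 and 0.683 FPKM in the VV mice 2074-2, 2074-5, 2126-4 and 2296-5, against 2.34, 3.403, 2.95 and 1.46 FPKM in the MM mice 2032-3, 2074-1, 2127-1 and 2127-3. The highest VV value was below the lowest MM value, and mouse 2296-5 stood above the other VV mice. The log2 difference was -2.45 (standard error 0.36, 95% interval -3.21 to -1.68, limma adjusted p = 0.037). With the 8 sedentary mice alone the limma adjusted p was 0.0925. The means of the exercised mice do not enter the resting difference, though these mice share in its estimate of the spread. The exercised mice gave 0.325, 0.297, 0.403 and 0.250 FPKM in VV and 1.63, 0.895, 1.87 and 3.99 FPKM in MM. Those groups did not overlap either, and the log2 difference was -2.22 (limma adjusted p = 0.124). With rest and exercise averaged it was -2.33 (adjusted p = 0.00067), the only gene called in that contrast (0.00951%, with 1375 genes at an unadjusted p under 0.05). The difference at rest and the one after the run were not separated by the interaction test (adjusted p = 1.00). With 1 of the 16 mice left out at a time, the resting call was kept in 4 fits and lost in 12, at adjusted p values from 0.0059 to 0.265 and log2 differences from -2.70 to -2.29. The gene averaged 1.34 FPKM over 16 mice, just above the filter, which it passed through the MM mice. Its mean was 0.389 FPKM in sedentary and 0.319 FPKM in exercised VV mice, against 2.54 and 2.10 FPKM in MM mice. With no filter on low values the resting call was lost (limma adjusted p = 0.102). With 1 in place of 0.1 added before the logarithm its log2 difference was -1.33 (adjusted p = 0.225).

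Genes around Camk2g were looked at next. Of 46 tested genes within 5 Mb of it, 21 were above and 25 below 0, with a median log2 difference of -0.03, and 1700112E06Rik was the only one with an unadjusted p under 0.05 and the only one whose groups did not overlap. Over all tested genes those shares were 4.47% and 1.9%. Within 2 Mb there were 32 such genes with the same median to 2 decimals, and within 10 Mb there were 71, with Prkcd, named after its value was seen, as the one addition under 0.05. Whether sequence on chromosome 14 that travels with the knock-in allele differs between the genotypes was not tested.

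Camk2g itself, on chromosome 14 from 20734873 to 20794157, was read at 61.6, 57.3, 63.7 and 59.9 FPKM in VV mice and at 65.6, 70.7, 66.7 and 72.9 FPKM in MM mice. All 4 VV values were below all 4 MM values, but the gap between the nearest mice was small. The log2 difference was -0.19 (standard error 0.06, limma adjusted p = 0.835), with a 95% interval of -0.32 to -0.05. After the run it was -0.15 (adjusted p = 0.627), again without overlap. The other isoforms of the kinase overlapped between genotypes. Camk2a, the α isoform, was at 128, 146, 147 and 131 FPKM in VV and 144, 138, 144 and 146 FPKM in MM mice. Camk2b, the β isoform, was at 36.9, 38.9, 44.1 and 37.3 FPKM in VV and 39.4, 41.7, 42.7 and 41.0 FPKM in MM mice. Camk2d, the δ isoform, was at 14.5, 13.7, 12.6 and 13.2 FPKM in VV and 17.6, 14.6, 13.9 and 16.04 FPKM in MM mice. Their log2 differences were -0.06, -0.07 and -0.19 in that order, none with an unadjusted p under 0.05. Of the 11 tested genes for CaM kinases, their kinase kinases and calmodulin, 3 were above and 8 below 0, with a median of -0.07.

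No gene of calcium handling or its transcriptional arm passed the test. The medians of the gene lists depended on single mice. With 1 sedentary mouse left out at a time, 24 of 42 took the other sign at least once, 6 of them without VV mouse 2074-2. Under median-ratio or quantile scaling 8 took the other sign, those of calcium handling, antioxidants, fast fibres, glycolysis, fatty acids, the respiratory chain, angiogenesis and endothelium. The list of calcium release and uptake holds the ryanodine receptor, the dihydropyridine receptor subunits, the SERCA pumps, the calsequestrins and their partners. It had 35 tested genes, 16 above and 19 below 0, a median of -0.01, and all 35 had a 95% interval inside 2-fold. The smallest p belonged to Trdn, triadin, which links calsequestrin to the ryanodine receptor. Trdn was at 590, 530, 538 and 570 FPKM in VV and 589, 649, 650 and 597 FPKM in MM mice, which overlap, and its log2 difference was -0.16 (limma adjusted p = 0.835). Slc8a3, a sodium-calcium exchanger, gave -0.31 and Cacna2d1, a channel subunit, gave -0.22, both with an unadjusted p above 0.05. In the list of calcineurin, NFAT and MEF2, 9 of 19 tested genes were above 0 and the median was -0.06. There Myoz3, which anchors calcineurin at the Z-disc, was at 85.4, 85.8, 84.6 and 75.1 FPKM in VV and 98.96, 93.3, 87.6 and 93.9 FPKM in MM mice. Its groups did not overlap, by a small gap, with a log2 difference of -0.18 (adjusted p = 0.835). Ppp3cb, a catalytic subunit of calcineurin, gave -0.16 and Mef2c gave -0.17, neither with an unadjusted p under 0.05.

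The next genes by p value were mostly expressed at a few FPKM. Lphn2, named Adgrl2 in RefSeq, encodes the adhesion receptor latrophilin 2. It was at 2.17, 2.58, 2.62 and 1.99 FPKM in VV and 3.99, 3.80, 4.64 and 3.80 FPKM in MM mice, with a clear gap between the groups. The log2 difference was -0.77 (standard error 0.15, limma adjusted p = 0.538), and after the run it was -0.05. An entry that joins the thymosin genes Tmsb15b1, Tmsb15b2 and Tmsb15l, which bind actin monomers, was at 2.07, 1.83, 2.44 and 2.16 FPKM in VV and 4.78, 3.06, 5.07 and 4.35 FPKM in MM mice. Its log2 difference was -0.97 (adjusted p = 0.835), and reads of these near-identical copies cannot be assigned to one of them. Ppcs, an enzyme of coenzyme A synthesis, gave 4.38, 4.76, 3.98 and 4.22 FPKM in VV against 5.91, 5.30, 5.65 and 6.43 FPKM in MM mice, without overlap. Its log2 difference was -0.42 (adjusted p = 0.835).

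Ppp1r3a was the leading gene of higher abundance among those lower in VV. It encodes the muscle subunit that brings protein phosphatase 1 to glycogen. Its level was 62.5, 47.4, 49.97 and 47.9 FPKM in VV and 78.0, 77.5, 77.0 and 57.7 FPKM in MM mice. MM mouse 2127-3 lay below VV mouse 2074-2, so the groups overlapped by 1 mouse on each side. The log2 difference was -0.48 (standard error 0.14, limma adjusted p = 0.835). Other leading genes lower in VV were Mr1, which presents vitamin B metabolites to T cells, at -0.32, Ttf2, a transcription termination factor, at -0.45, 2310030G06Rik at -0.67 and LOC101056029 at -0.96.

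The leading genes higher in VV were Sox18, Eif2c2, Bloc1s4, Bnip1 and A630019I02Rik. Sox18, a transcription factor of blood and lymph vessel endothelium, was at 2.75, 3.01, 4.04 and 3.97 FPKM in VV and 2.49, 2.26, 1.36 and 2.06 FPKM in MM mice, without overlap. Its log2 difference was 0.74 (standard error 0.17, limma adjusted p = 0.835), and in exercised mice it was 0.43 (adjusted p = 0.627), again without overlap. Of 10 tested endothelial markers, 4 were above and 6 below 0, with a median of -0.02, which was 0.04 without VV mouse 2074-2. Among them Eng gave 0.29 and Cdh5 -0.15 (limma unadjusted p = 0.047 and 0.049, adjusted p = 0.835 each). The summed level of these markers was 126 to 144 FPKM in VV and 127 to 154 FPKM in MM mice. The list of angiogenesis, which holds Sox18, had 9 of 21 genes above 0 and a median of -0.02. Eif2c2, named Ago2 in RefSeq, which carries microRNAs to their targets, was at 7.80, 9.49, 7.74 and 8.04 FPKM in VV and 6.33, 4.98, 5.18 and 7.86 FPKM in MM mice. The groups overlapped through 1 MM mouse, and the log2 difference was 0.45 (adjusted p = 0.835). Bloc1s4, a subunit of the complex that builds lysosome-related organelles, gave 0.56, and Bnip1, a SNARE protein of the endoplasmic reticulum, gave 0.35, both without overlap.

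A630019I02Rik, a long noncoding RNA on chromosome 13 from 93094833 to 93098968, showed a different pattern. It was at 129, 118, 98.5 and 103 FPKM in VV and at 23.1, 10.4, 17.2 and 97.1 FPKM in MM mice. In sedentary MM mice it was low in all but 2127-3, which stood just under the VV range. The log2 difference was 2.14 (standard error 0.46, limma adjusted p = 0.835), and without mouse 2127-3 it was 2.79 (adjusted p = 1.23e-05). That mouse was singled out by its value in this gene, so the p without it is no support for a difference. In exercised mice it was at 95.9, 90.9, 117 and 143 FPKM in VV and 105, 103, 115 and 112 FPKM in MM, a log2 difference of 0.02. All 8 exercised mice thus lay between 90.9 and 143 FPKM, above the 3 low sedentary MM mice.

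Among the 15 genes with the smallest p at rest, 14 had a difference of the same sign in the exercised mice, with Bloc1s4 at -0.09 as the exception. Some of the 14 were near 0 after the run, with A630019I02Rik at 0.02, 2310030G06Rik at -0.02, and Lphn2 and Ppcs at -0.05 each. The share of all tested genes with the same sign is not given here, so the 14 are no sign of replication. Of the 15, 3 had an unadjusted limma p under 0.05 after the run, 1700112E06Rik, Sox18 and Chac2, against 7.08% of all tested genes. Both contrasts come from the same fit and share the standard error of each gene. Genes chosen by a small p at rest therefore tend to have a small standard error after the run too. The 3 genes set against 7.08% are for that reason no independent check. All 15 differences were smaller in size after the run, in a contrast whose means did not choose these genes. No gene passed after the run (0% of the genes tested, with 745 at an unadjusted p under 0.05), and no gene passed the test of the resting difference against the one after the run, with 195 at an unadjusted p under 0.05. Of the 200 genes whose groups did not overlap at rest, 8 did not overlap in the same direction after the run, and none in the opposite direction. These 8 are 4.0% of the 200, and over all tested genes 357 (3.39%) did not overlap after the run, in either direction. Both shares are close, so the 8 genes are listed as a description and not as differences kept in both states.

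The 8 genes were 1700112E06Rik, Camk2g, Sox18, Chac2, Sgk3, Phb2, Ppp1r14c and Xpo5, of which Sgk3, Phb2, Ppp1r14c and Xpo5 were named after their values were seen. Over all 16 mice, the 8 VV values lay all below the 8 MM values in 2 of 10519 genes (0.019%) and all above them in 1 (0.0095%). These 3 genes were 1700112E06Rik and Sgk3, lower in VV, and Sox18, higher in VV. With 10519 genes looked at, some can separate in this way by chance. Sgk3, a kinase of the phosphoinositide pathway, was at 2.44, 2.28, 2.54 and 2.23 FPKM in resting VV and 3.75, 3.20, 4.18 and 2.73 FPKM in resting MM mice. Its log2 difference was -0.51 at rest and -0.52 after the run (adjusted p = 0.835 and 0.627). Over both states the VV mice spanned 2.00 to 2.63 FPKM and the MM mice 2.72 to 4.66 FPKM. Chac2, which breaks down glutathione, was at 8.76, 7.95, 8.71 and 8.61 FPKM in VV and 12.8, 9.08, 11.2 and 10.6 FPKM in MM mice at rest, with log2 differences of -0.35 at rest and -0.22 after the run. Phb2, prohibitin 2 of the inner mitochondrial membrane, gave 0.18 at rest and 0.12 after the run. Ppp1r14c, an inhibitor of protein phosphatase 1, gave -0.19 and -0.22, and Xpo5, which exports microRNA precursors from the nucleus, gave -0.20 and -0.19. Apart from 1700112E06Rik, none of them passed with rest and exercise averaged (limma adjusted p = 0.378 each).

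**Figure D3:**
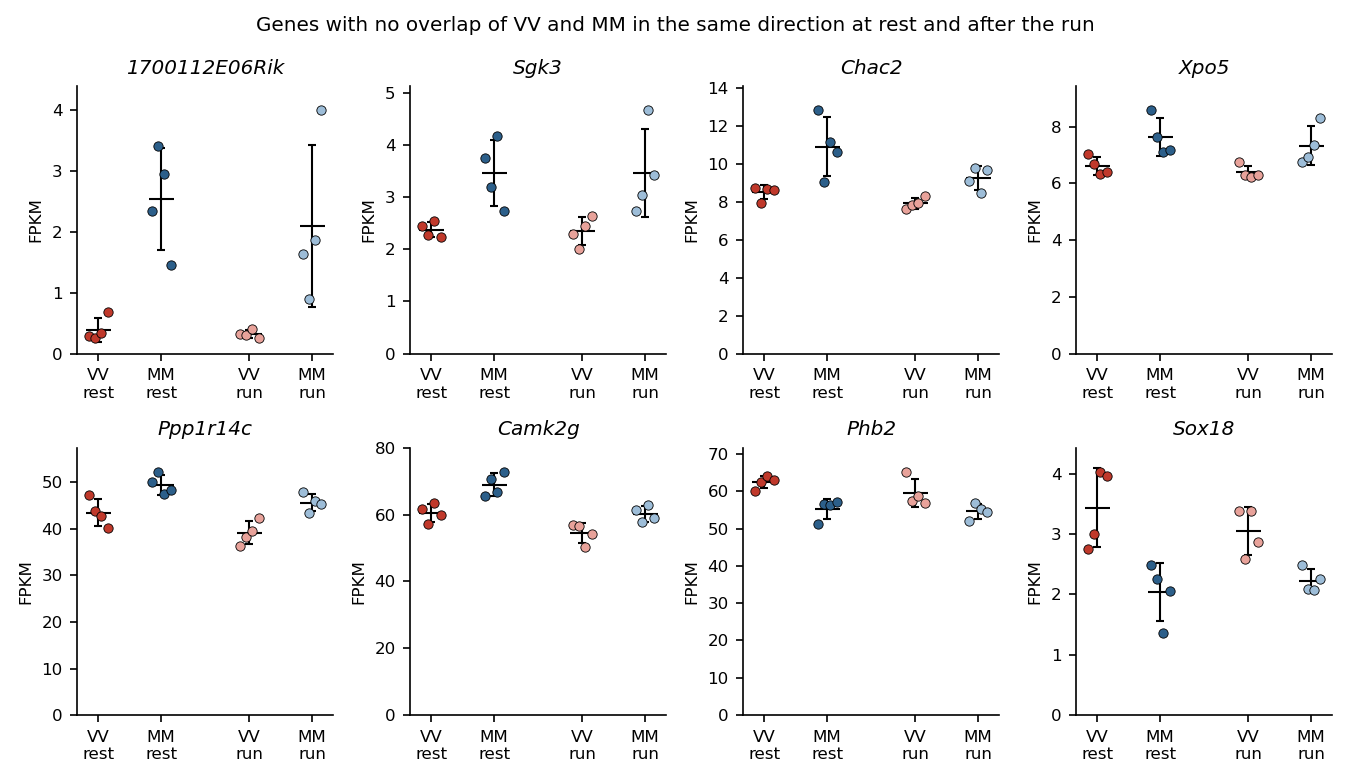
FPKM of the 8 genes whose VV and MM values do not overlap in the same direction at rest and after the run. Points are single mice, VV to the left of MM in each state, horizontal bars are means and whiskers are 1 SD (n = 4 mice each). In 1700112E06Rik the VV mice lie at 0.250 to 0.683 FPKM and the MM mice at 0.895 to 3.99 FPKM.

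A630019I02Rik was also the largest difference among genes without overlap that were higher in VV. The other 15 of the 8 largest in each direction averaged under 5 FPKM over the 16 mice. Cabp1, a calcium-binding relative of calmodulin, was at 2.54, 3.31, 2.04 and 3.49 FPKM in VV and 1.73, 0.894, 0.971 and 1.40 FPKM in MM mice, a log2 difference of 1.14 (adjusted p = 0.835) that was -0.02 after the run. Selm, selenoprotein M of the endoplasmic reticulum, gave 0.89, and Ntn4, a netrin of basement membranes, gave 0.62, with -0.38 after the run. Rbm15b, of the RNA methylation complex, and an entry that joins Gp1bb and Sept5 gave 0.58 and 0.56. In the other direction, 0610040B10Rik gave -0.87, LOC100505179 -0.74, Rps6ka5, a kinase that phosphorylates histones and CREB, -0.64, and the long noncoding RNA Pvt1 -0.57. All had an adjusted p of 0.835.

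Among genes averaging 100 FPKM or more the smallest p values belonged to differences of 0.28 or less in size on the log2 scale. Actn2, the α-actinin of the Z-disc, was at 314, 307, 287 and 331 FPKM in VV and 291, 263, 270 and 265 FPKM in MM mice. The lowest VV mouse was just under the highest MM mouse, and the log2 difference was 0.18 (standard error 0.06, adjusted p = 0.835). Rps12, a protein of the small ribosomal subunit, was at 323, 321, 360 and 335 FPKM in VV and 267, 273, 294 and 318 FPKM in MM mice, without overlap, a log2 difference of 0.22 (adjusted p = 0.835). Mgst3, a microsomal glutathione transferase, was at 241, 229, 260 and 257 FPKM in VV and 178, 220, 206 and 220 FPKM in MM mice, again without overlap, and gave 0.26. Rps21, Rpl13 and Rpl28 gave 0.28, 0.23 and 0.20, while Naca, which binds nascent chains at the ribosome, gave -0.23 and Pfn2, a profilin, gave -0.21.

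No contractile gene passed the test. Of 12 fast fibre genes, 7 were above 0, the median was 0.01 and all had an interval inside 2-fold. Tnni2, fast troponin I, gave 0.14. Of 10 slow fibre genes, 2 were above and 8 below 0, with a median of -0.14, and -0.29 after the run. None had an unadjusted p under 0.05. Atp2a2, the slow and cardiac SERCA pump, was at 110, 63.8, 67.5 and 77.7 FPKM in VV and 116, 87.5, 97.0 and 79.6 FPKM in MM mice. VV mouse 2074-2 was inside the MM range and the other 3 VV mice were below every MM mouse, with a log2 difference of -0.27. Tnnt1, slow troponin T, gave -0.34 and Tpm3, slow tropomyosin, gave -0.28. Without VV mouse 2074-2 the median of the list was -0.28, and without VV mouse 2074-5 it was 0.02. The summed level of the list was 926 to 1638 FPKM in VV and 1221 to 1628 FPKM in MM mice. In the list of sarcomere stress genes, 14 of 22 were above 0 with a median of 0.02, and -0.04 without mouse 2074-2. Its member Ankrd2, a stretch-responsive protein, was at 81.0, 83.4, 84.4 and 132 FPKM in VV and 61.0, 64.6, 74.3 and 79.1 FPKM in MM mice. Those groups did not overlap, and the log2 difference was 0.43 (adjusted p = 0.835) at rest and -0.12 after the run. Cav3, caveolin of the sarcolemma, gave 0.26. Of 12 genes of the neuromuscular junction, 8 were above 0, with a median of 0.03, and of 19 genes of muscle differentiation and growth, 11 were above 0, with a median of 0.01. Mstn, myostatin, gave -0.20 and Tgfb1 gave 0.51 (adjusted p = 0.835).

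In energy metabolism most differences were bounded within 2-fold. All 38 tested nuclear-encoded genes of the respiratory chain had an interval inside 2-fold, 20 were above and 18 below 0, and the median was 0.01. Cyc1, cytochrome c1, gave 0.14 and Ndufa1, of complex I, gave 0.12. All 32 genes of glucose uptake and glycolysis had an interval inside 2-fold, with 14 above 0 and a median of -0.02. Tbc1d1, which holds glucose transporters inside the cell until it is phosphorylated, was at 11.8, 10.7, 13.4 and 14.2 FPKM in VV and 14.2, 16.3, 14.8 and 13.97 FPKM in MM mice. These overlapped, with a log2 difference of -0.25 (adjusted p = 0.835) at rest and 0.19 after the run. Of 22 genes of AMPK and PGC-1, 8 were above 0 and the median was -0.06. Stk11, the kinase LKB1 that activates AMPK, gave 0.26, and Prkaa2, the muscle catalytic subunit of AMPK, gave -0.21, both with an adjusted p of 0.835. Fatty acid metabolism had 16 of 32 genes above 0 and a median of -0.01, with Ucp2 at 0.46 and the lipid droplet protein Plin5 at 0.31 without overlap. Cholesterol synthesis had 9 of 18 above 0 and a median of -0.04.

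No gene of oxidant production, antioxidant defence or methionine repair passed the test. Of 34 antioxidant genes, 15 were above 0 and the median was -0.01. Txnip, which binds and inhibits thioredoxin, was at 332, 332, 245 and 359 FPKM in VV and 283, 291, 206 and 243 FPKM in MM mice, which overlap. It gave 0.31, and Prdx5, a mitochondrial and peroxisomal peroxiredoxin, gave 0.18, both with an adjusted p of 0.835. Of 10 oxidant sources, which are MICAL oxidases, nitric oxide synthases, xanthine dehydrogenase and genes of the NADPH oxidases, 7 were above 0 with a median of 0.06, and 0.19 without mouse 2074-2. All 4 methionine sulfoxide reductases were below 0, with a median of -0.03 and all 4 intervals inside 2-fold. Msrb3, the largest of these differences at -0.08, was at 87.9, 78.3, 75.3 and 73.8 FPKM in VV and 84.5, 85.2, 82.4 and 79.99 FPKM in MM mice.

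Some lists had most members on one side of 0 without any member passing. Of 43 cytosolic ribosomal proteins, 32 were above 0, against 43.1% of all tested genes, with a median of 0.08, and 5 had an unadjusted p under 0.05, all higher in VV, against 2.11% of all tested genes in that direction. After the run the median of this list was -0.06. Of 26 immediate early genes, which answer calcium and stress signals within minutes to hours, 23 were above 0, and none had an unadjusted p under 0.05. Their median was 0.15 (0.11 to 0.31 with 1 sedentary mouse left out). The mean log2 level of the list had an SD between mice of 0.26 in VV and 0.09 in MM. Its summed level was 152 to 247 FPKM in VV and 157 to 201 FPKM in MM mice, which overlap. Junb was at 0.462, 1.14, 1.04 and 1.54 FPKM in VV and 0.204, 0.353, 0.448 and 1.18 FPKM in MM mice, with overlap and a log2 difference of 0.94. Klf6, at -0.39, was among the 3 genes of the list below 0, and the list had a median of -0.14 after the run. Heat shock genes and chaperones had 15 of 27 above 0 with a median of 0.01, with Hspb2, a small heat shock protein of muscle, at 0.23 and Dnajb5 at 0.25. In the unfolded protein and integrated stress response, 14 of 20 were above 0 with a median of 0.07. Chac1 there was at 37.6, 39.5, 44.2 and 102 FPKM in VV and 30.5, 46.1, 28.0 and 27.04 FPKM in MM mice, and Asns at 2.32, 1.13, 0.815 and 5.51 FPKM in VV and 1.124, 1.27, 0.891 and 0.578 FPKM in MM mice. VV mouse 2296-5 was the highest of the 8 in both. The same mouse was also highest in Ankrd2 and in Zbtb16, a glucocorticoid-responsive gene, at 53.4 FPKM against 24.3 to 25.6 FPKM in the other VV mice. Of 13 glucocorticoid-responsive genes, 8 were above 0, and their median was 0.01. Ubiquitin ligases and FOXO genes had 8 of 14 above 0 with a median of 0.03.

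Of 18 core clock genes, 6 were above 0 and the median was -0.05. Nr1d1, the repressor REV-ERBα, was at 27.8, 55.2, 60.2 and 74.2 FPKM in VV and 33.0, 34.8, 30.1 and 42.2 FPKM in MM mice. Mouse 2074-2 was the lowest of all 8 and the other VV mice were above every MM mouse, with a log2 difference of 0.56. Bhlhe41, another clock repressor, was at 16.9, 22.1, 24.2 and 18.9 FPKM in VV and 26.1, 24.3, 24.9 and 28.97 FPKM in MM mice. Those groups did not overlap, and the log2 difference was -0.35 (adjusted p = 0.835).

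Markers of other cells of the muscle held no gene that passed. Of 11 tested markers of macrophages and monocytes, 9 were above 0 with a median of 0.24, which was 0.04 without VV mouse 2126-4 and 0.54 without VV mouse 2296-5. Their summed level was 37.1 to 120 FPKM in VV and 48.5 to 84.9 FPKM in MM mice. C1qc, a complement subunit made by macrophages, was at 6.96, 10.3, 14.7 and 4.17 FPKM in VV and 6.44, 5.08, 5.08 and 6.48 FPKM in MM mice. VV mice held both the highest and the lowest value, and the log2 difference was 0.50. Csf1r, the receptor that macrophages need to survive, gave 0.43. All 5 tested genes of MHC class II were above 0 with a median of 0.34, and 0.17 without MM mouse 2074-1. Their member H2-Ab1 was at 9.71, 14.6, 12.8 and 6.77 FPKM in VV and 9.75, 5.74, 6.12 and 13.7 FPKM in MM mice. In exercised mice the medians were -0.56 for both of these lists. Complement and phagocyte receptors had 13 of 19 above 0 with a median of 0.14, and 0.00 without VV mouse 2126-4. Cytokines, chemokines and NF-kB had 16 of 25 with a median of 0.07, and interferon response and MHC class I 15 of 32 with a median of -0.04. Il15, a cytokine that muscle fibres make, was at 6.65, 3.54, 3.60 and 4.28 FPKM in VV and 6.97, 6.46, 5.43 and 5.18 FPKM in MM mice. All VV mice but 2074-2 were below every MM mouse, and the log2 difference was -0.44 (adjusted p = 0.835).

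Markers of T cells, NK cells and neutrophils were near the floor. None of the 12 markers of T and NK cells reached the filter, and the highest of their values in a sedentary mouse was 0.394 FPKM. Ly6g, which defines mouse neutrophils, was listed at 0 in all 8 mice, and S100a9, the only tested neutrophil marker, was at 0.652, 1.90, 2.13 and 0.613 FPKM in VV and 0.631, 1.01, 0 and 0.747 FPKM in MM mice. Ighm was the only tested marker of B and plasma cells, at 80.6 to 141 FPKM in VV and 92.7 to 135 FPKM in MM mice. All 4 tested mast cell markers were above 0, with a median of 0.25 that was 0.01 without VV mouse 2074-2 and 0.85 without VV mouse 2296-5, and summed to 2.43 to 13.4 FPKM in VV and 4.43 to 13.2 FPKM in MM mice. Markers of smooth muscle and pericytes were above 0 in 7 of 10, of satellite cells in 3 of 5, of Schwann cells in 5 of 5 and of tendon in 6 of 7, with medians of 0.15, 0.15, 0.07 and 0.08 in that order. Without mouse 2074-2 these medians were 0.09, 0.23, -0.03 and 0.16. The satellite cell markers Pax7, Myf5, Calcr and Fgfr4 did not reach the filter. The 5 that were tested include Des, which is also in the list of fibre markers.

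Genes of connective tissue, fat and blood spread widely between mice. Collagens were above 0 in 13 of 17, with a median of 0.14, which was 0.29 without VV mouse 2074-2 and -0.04 without VV mouse 2126-4. Col4a2, of basement membranes, was at 13.8, 19.4, 22.8 and 19.4 FPKM in VV and 14.5, 12.4, 15.9 and 18.5 FPKM in MM mice. Mouse 2074-2 was inside the MM range and the other VV mice were above it, and the log2 difference was 0.29. Markers of fibro-adipogenic cells and fibroblasts were above 0 in 8 of 11, with a median of 0.14, which was -0.01 without VV mouse 2126-4, and -0.31 after the run. Of 11 adipocyte markers, 1 was above 0 and 10 below, with a median of -0.26, which was -0.44 without VV mouse 2074-2 and -0.02 without MM mouse 2074-1. Adipoq, adiponectin, was at 38.3, 19.0, 29.3 and 15.4 FPKM in VV and 34.4, 46.5, 27.1 and 28.96 FPKM in MM mice, with overlap and a log2 difference of -0.48. Erythroid markers had 4 of 4 above 0 with a median of 0.52, which was 0.88 without VV mouse 2074-2 and 0.22 without VV mouse 2074-5. Hba-a1, α-globin, was at 11.9, 59.0, 33.4 and 36.6 FPKM in VV and 13.5, 17.7, 17.97 and 30.6 FPKM in MM mice. Again mouse 2074-2 was the lowest of all 8 and the other VV mice were above every MM mouse, with a log2 difference of 0.68. No cell type list had a member that passed the adjusted threshold, and their part in the differences of other genes was not tested.

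**Figure D4:**
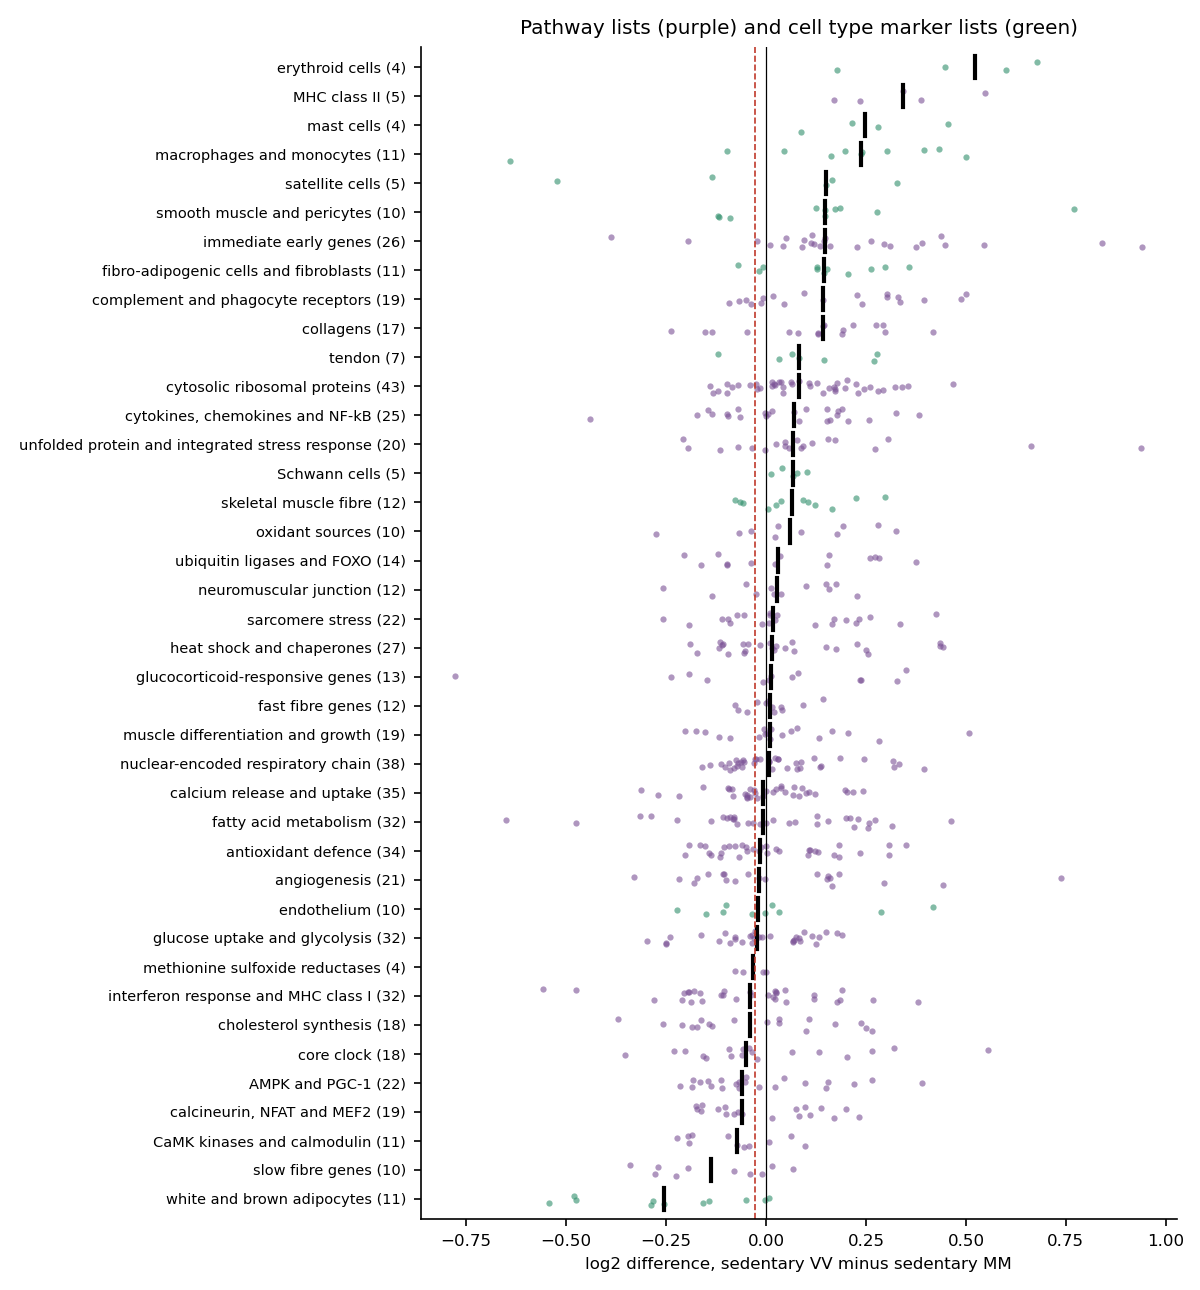
Log2 difference of sedentary VV minus sedentary MM for the tested members of each list with at least 3 of them (number in brackets), pathway lists in purple and cell type marker lists in green. Black bars are list medians and the dashed line is the median of all tested genes, -0.03. Medians run between -0.26 for adipocyte markers and 0.52 for erythroid markers, and no member passed the adjusted threshold.

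The resting comparison was precise enough to bound most genes. The median standard error of a log2 difference was 0.14, and the median SD between mice of a genotype was 0.18 in VV and 0.18 in MM. The 95% interval lay inside 2-fold in both directions for 10091 genes (95.9%) and inside 1.5-fold for 8210 genes (78.0%). Inside 1.5-fold the share was 60.8% of the 4153 genes at 1 to 5 FPKM, 87.4% of the 3799 genes at 5 to 20 FPKM, 93.0% of the 1991 genes at 20 to 100 FPKM and 88.7% of the 576 genes at 100 FPKM and over.

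**Figure D5:**
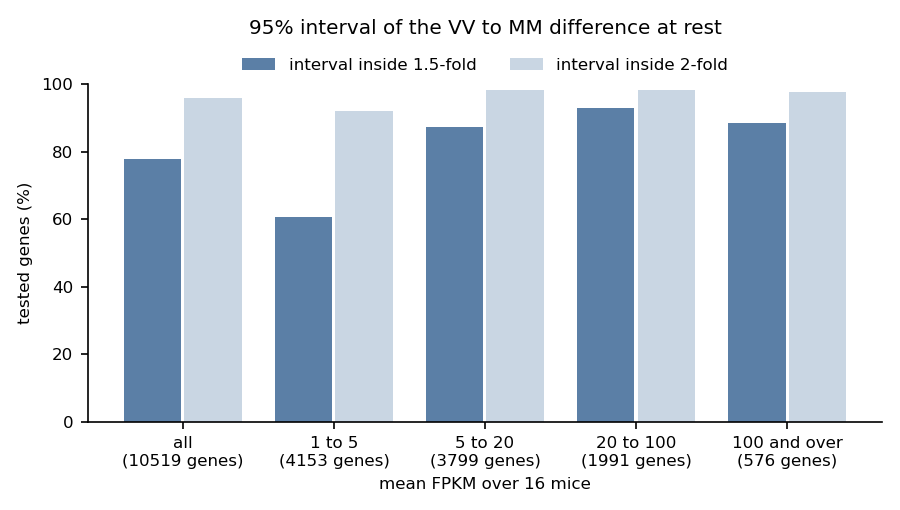
Percent of tested genes whose 95% interval of the difference between sedentary VV and MM mice lies inside 1.5-fold (dark) and inside 2-fold (light), for all genes and by class of mean FPKM. The share inside 1.5-fold was lowest, 60.8%, at 1 to 5 FPKM.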

How the data were processed

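The authors deposited 1 table of FPKM values for 16 mice, made from polyadenylated RNA read with a stranded kit. The build listed is mm10. Tools listed by the submitters' processing notes, with no roles given, are Cuffdiff 2.2.1, StringTie, SAMtools, TopHat and FastQC. Because FPKM is divided by each library's total, a few very high genes shift all others. Of 18873 entries, 8 had missing values and were left out. Genes averaging 1 FPKM or more were fitted on log2(FPKM + 0.1), which understates changes of low genes, with limma 3.58.1 in R 4.3.3 (4 group means, eBayes with trend and robust settings, two-sided, Benjamini-Hochberg, threshold 0.05). The fit was tested on simulated data in which each gene varied independently with normal noise. That simulation does not cover correlated genes or outlying mice. Figures used Python 3.11.15 and matplotlib 3.10.9. Names and coordinates come from RefSeq's GRCm38 table, which matched 9318 genes by symbol and 832 by synonym and left 369 unmatched. In 271 tested entries several genes are joined. Each mouse is 1 replicate.

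The comparison and the 43 gene lists were chosen with earlier results of these data known, so lists carry no test and are described by counts and medians. Named genes are the 15 with the smallest p, the 8 largest differences in each direction without overlap, the 8 smallest p among genes averaging 100 FPKM or more, the CaMKII isoforms and up to 3 members of each list. Small noncoding RNAs are named only among the first 15. Alternatives were other pseudocounts, filters, scalings, variance settings and samples.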

Additional observations from a re-analysis of the deposited data

Results flagged for a closer look

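Among 98 genes and 196 groups of 4 sedentary mice looked at, 13 groups held a mouse far from the other 3 by Dixon's 95% criterion, where chance flags about 1 in 20. In VV, mouse 2296-5 stood apart in Ankrd2 at 132 FPKM, Zbtb16 at 53.4 FPKM, Chac1 at 102 FPKM and Myoz3 at 75.1 FPKM. VV mouse 2074-2 stood apart in Pfn2 at 119 FPKM, Ifitm1 at 1.37 FPKM and Cdh15 at 3.91 FPKM. In MM, mouse 2127-3 stood apart in A630019I02Rik at 97.1 FPKM, Ppp1r3a at 57.7 FPKM, Rbm15b at 0.820 FPKM and Micall1 at 7.10 FPKM. MM mouse 2032-3 stood apart in 0610040B10Rik at 5.11 FPKM and Phb2 at 51.3 FPKM. No cause was tested.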

How the results depend on the processing

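The count of 1 called gene at rest became 0 with a pseudocount of 1, no filter, a mean of at least 5 FPKM (which leaves 1700112E06Rik out), median-ratio or quantile scaling, plain eBayes and the 8 sedentary mice alone, and 0 to 2 without 1 mouse. It stayed at 1 with a pseudocount of 0.01, sample quality weights and the number in the mouse name as a random block. For 1700112E06Rik the log2 difference was -1.33 (limma adjusted p = 0.225) with a pseudocount of 1, between -2.72 and -2.41 (adjusted p 0.0159 to 0.12) in the other settings with all mice or all 8 sedentary mice, and between -2.70 and -2.29 (adjusted p 0.0059 to 0.265) without 1 mouse. The 2 calls without MM mouse 2127-3 were 1700112E06Rik and A630019I02Rik. Genes with an unadjusted p under 0.05 numbered 842 with no filter, 288 at a mean of at least 5 FPKM, 734 with quality weights, and 219 to 1293 without 1 mouse. Genes without overlap numbered 328, 113 and, without 1 mouse, 200 to 1299. Intervals inside 2-fold numbered 16087 with no filter and 6262 at 5 FPKM. Without 1 mouse, calls after the run numbered 0 to 1, calls averaged over rest and exercise 1 to 2 (0 at 5 FPKM), and calls for the difference between them 0 to 1. The distance between genotypes ranged from -0.33 to 2.34 without 1 mouse and took a negative sign without 2032-3 (-0.33), 2074-5 (-0.09) or 2296-5 (-0.22). None of the 98 genes recomputed under every alternative that tested them took the other sign. Most of these genes were chosen by a small p or a large difference in the main fit. That choice favours a kept sign. Other scalings moved the median of all genes by less than 0.1. No paired analysis was possible because the 1 mouse-name number that sedentary MM and VV mice share, 2074, covers 1 MM and 2 VV mice, so it served only as a random block (consensus correlation 0.23). Absolute depth is unknown. The standard errors and intervals come from the spread within all 4 groups of 4 mice, moderated over genes by eBayes. Each SD comes from the 4 mice of its own group.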
